A study of Rattus norvegicus with 6 samples.

Results

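Transcripts of 5 matrix metalloproteinases and of the metalloproteinase inhibitor Timp1 were followed in cultured mesenchymal stromal cells of rat bone marrow, a cell type with the capacity to form bone, cartilage and fat. The 6 genes, of 30452 listed, are Mmp13 (ENSRNOG00000008478), Mmp2 (ENSRNOG00000016695), Mmp3 (ENSRNOG00000032626), Mmp9 (ENSRNOG00000017539), Mmp14 (ENSRNOG00000010947) and Timp1 (ENSRNOG00000010208). They were chosen by identifier, with their counts in the hydrogel and control libraries already known. Their differences between the groups are therefore descriptions of these libraries and not independent tests.

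Cells of both groups were labelled WT and came from osteogenic differentiation experiments. The control cultures were untreated ("Blank", n = 3), and the treated cultures were co-cultured with AAT-ZCG hydrogel (n = 3), a gel carrying linked enzymes that is aimed at diabetic bone defects. The labels leave the abbreviation unexplained and state neither the time in culture nor whether the libraries came from separate animals or cultures. The spread between libraries may therefore be technical. Library totals ran from 30601703 to 93728651 counts, with the deepest library numbered 2 in each group. The stromal identity of the cultures was not checked against markers, because the files give identifiers without names.

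Matrix metalloproteinases are zinc-dependent enzymes that cut collagens and other proteins of the extracellular matrix. Most are secreted as inactive proenzymes and need a cut to become active, and tissue inhibitors of metalloproteinases such as Timp1 bind and block the active enzymes. In bone, Mmp13 is the main collagenase of rodents and is made by osteoblasts and hypertrophic chondrocytes. Mmp2 and Mmp9 are gelatinases, which cut denatured collagen and basement membrane collagen. Mmp3 is a stromelysin with a broad range of substrates that can also activate other proenzymes. Mmp14 is anchored in the cell membrane, cuts fibrillar collagen and activates the Mmp2 proenzyme at the cell surface.

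Sequences before the gene start are shown for Mmp13 and Mmp3, and in short for Timp1. RefSeq promoter sequences (build GRCr8) matched only these 3 of the 6 members by symbol, so Mmp2, Mmp9 and Mmp14 cannot be set beside them. The capitals mark 3 strings: TGACTCA or its reverse complement TGAGTCA, the letters of the classical AP-1 site; TGAGTAA, an AP-1-like string looked for on both strands after the sequences had been read; and TATAAA, the TATA box letters, on the gene's strand only. Each line reads 5′ to 3′ on the gene's strand. The first 2 run from position -200 to -21 relative to the RefSeq start and the Timp1 stretch from -120 to -91.

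Mmp13, chr8:12782629-12782808, plus strand: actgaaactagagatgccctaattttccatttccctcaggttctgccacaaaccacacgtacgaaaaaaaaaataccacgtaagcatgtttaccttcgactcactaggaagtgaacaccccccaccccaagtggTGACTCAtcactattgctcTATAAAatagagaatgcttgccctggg
Mmp3, chr8:12925081-12925260, plus strand: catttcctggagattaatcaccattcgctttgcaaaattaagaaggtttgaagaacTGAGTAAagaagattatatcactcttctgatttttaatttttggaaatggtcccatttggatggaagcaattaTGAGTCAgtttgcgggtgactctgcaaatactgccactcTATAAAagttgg
Timp1, chrX:3771213-3771242, minus strand: gcagtgggtggaTGAGTAAtgcgtccagga

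The AP-1 letters lay at -66 to -60 in Mmp13 and at -71 to -65 in Mmp3, each followed by TATAAA, at -47 to -42 and at -32 to -27. The string TGAGTAA lay at -144 to -138 in Mmp3 and at -108 to -102 in Timp1. The full Timp1 promoter of 300 bp held neither the classical AP-1 letters nor TATAAA. Of 33469 rat promoters of 300 bp (250 bases before to 50 after the start), 4.63% held TGACTCA on either strand, 8.8% held TATAAA and 2.9% held TGAGTAA. The matches describe letters only. The Timp1 stretch lies inside the RefSeq gene span, which also holds transcripts that start further upstream. These coordinates belong to the promoter table and not to the deposited counts.

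Transcript levels per length covered a wide range and kept the same order in all 6 libraries. On the FPKM scale (fragments scaled by gene length and library total), Mmp2 was highest, followed by Timp1, Mmp14, Mmp13, Mmp3 and Mmp9. Within each group, the libraries of neighbours in this order did not overlap. In control library 1, Mmp3 and Mmp9 stood at 0.431 and 0.0553 FPKM, while Mmp3 in the controls ran from 0.431 to 0.903. The first gap is smaller as a difference in FPKM and larger as a ratio. Among all listed genes, Mmp2 ranked 69 by mean FPKM in controls and 41 with hydrogel, Timp1 141 and 133, and Mmp14 301 and 405. Mmp13 moved from rank 10046 to 4227, Mmp3 from 12517 to 9775 and Mmp9 from 17380 to 14631. The 3 abundant members therefore ranked 405 or better in both groups, while the collagenase, the stromelysin and the second gelatinase were far down the list in controls.

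**Figure D1:**
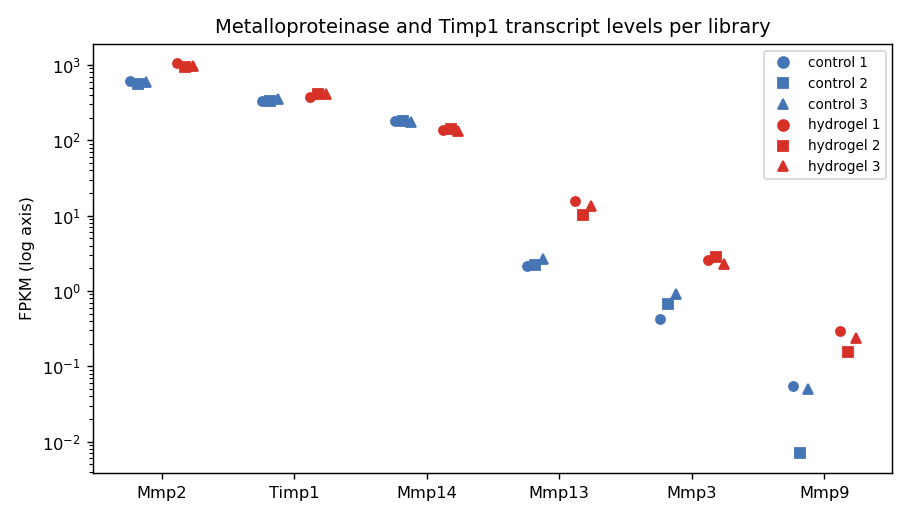
FPKM of each gene in the 6 libraries (log axis); blue marks the 3 control and red the 3 hydrogel libraries, and the marker shape gives the library number. The groups are apart for all 6 genes, with red above blue except for Mmp14, and the order of the genes is the same in every library.

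With hydrogel, 5 of the 6 transcripts were higher and Mmp14 was lower. Fold changes are hydrogel over control from an edgeR quasi-likelihood fit over all genes, scaled by TMM. All 6 genes were kept by the low-count filter, Mmp9 only through its counts in the hydrogel libraries. At a Benjamini-Hochberg adjusted p under 0.05, 5 members were called higher, where 17.5% of the 14715 tested genes were, and 1 was called lower, where 17.1% were. Mmp13, Mmp3 and Mmp9 were called higher by over 2-fold, against 3.61% of tested genes. All 3 hydrogel libraries lay above all 3 controls for 5 members (23.8% of tested genes) and below them for 1 (23.5%). Because the members were chosen with this comparison known, nothing is read from these counts. Nor is anything read from the median log2 fold change of the 6, which was 1.36 beside 0.00 for all tested genes. The 6 values ran from -0.35 for Mmp14 to 2.83 for Mmp9. In bulk RNA, a change in the number of cells making a transcript and a change in RNA per cell cannot be told apart.

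**Figure D2:**
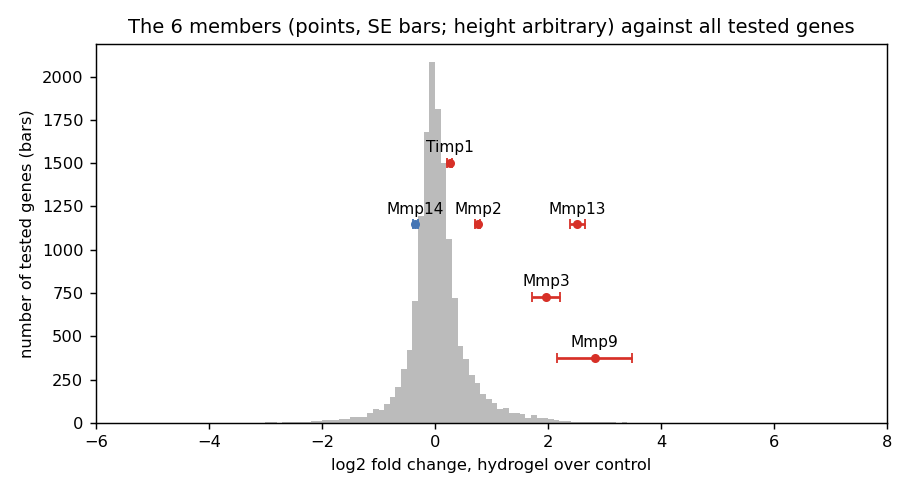
Distribution of the log2 fold change (hydrogel over control) of the 14715 tested genes as grey bars, with the 6 members as points with SE bars at arbitrary height. Mmp14 at -0.35 and Timp1 at 0.26 lie within the bulk of genes, and Mmp3, Mmp13 and Mmp9, at 1.97 to 2.83, lie in the far right tail.

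Mmp13, the collagenase, had the largest fold change among the members with more than 100 counts in every library. Its counts were 196, 541 and 265 in control libraries 1 to 3 and 1269, 2154 and 1076 in hydrogel libraries 1 to 3. In FPKM these were 2.12, 2.22 and 2.63 against 15.6, 10.3 and 13.5. The groups did not overlap, and the lowest hydrogel library, number 2, stood well above the highest control, number 3. The fold change was 5.74 (log2 2.52, SE 0.14), and 99.7% of tested genes had a lower log2 fold change.

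The hydrogel libraries differed among themselves in Mmp13 by more than counting error. As CPM (counts scaled to 1000000 per library), library 1 held 40.7 (exact 95% Poisson interval 38.5 to 43.0), library 2 held 26.7 (25.6 to 27.9) and library 3 held 35.2 (33.1 to 37.3). These intervals did not overlap. The coefficient of variation of the TMM-scaled CPM was 20.3% with hydrogel and 12.2% in controls (n = 3 each). Library 2, the lowest, is also the deepest of its group, and the part of depth or of a batch in this spread was not tested. With libraries 1 and 3 of each group alone, the log2 fold change of Mmp13 was 2.64. Over all 6 libraries on a log2(FPKM + 1) scale, which shrinks the change of low genes, it was 2.07.

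Mmp2, the abundant gelatinase, was 1.69-fold higher with hydrogel (log2 0.76, SE 0.04). Its FPKM were 602, 562 and 602 in controls and 1043, 938 and 955 with hydrogel. The lowest hydrogel library, number 2, exceeded the highest control by far more than the spread within either group. Mmp2 alone accounted for 0.179% ± 0.0069 of a control library and for 0.298% ± 0.017 of a hydrogel library (SD, n = 3). Behind these shares stood at least 65110 counts per library, so counting error was negligible beside the spread between libraries. The coefficient of variation was 3.75% in controls and 5.48% with hydrogel, above the medians of 2.88% and 3.74% for the 1731 genes averaging 100 CPM or more. In size, the change exceeded that of 88.4% of tested genes.

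Mmp9, the gelatinase best known from myeloid cells and osteoclasts, was so low that it is described by raw counts. It had 6, 2 and 6 counts in controls and 28, 38 and 22 with hydrogel. Every hydrogel library had more counts than any control, although the deepest of all libraries was a control, number 2. Pooled over the libraries of a group, 88 counts in 142474104 stood against 14 in 168068613. That is a ratio of 7.41 (exact 95% Poisson interval 4.19 to 14.1, counting error only), from 0.0833 to 0.618 CPM. Control libraries 1 to 3 held 0.169, 0.0213 and 0.155 CPM, so the deep control library 2 pulled the pooled control value down. The interval does not cover this spread between libraries. The fitted log2 fold change was 2.83 (SE 0.66), and control library 2 with its 2 counts weighed on it. Without that library the estimate was 2.08. On log2(FPKM + 1) and log2(FPKM + 0.1) scales, which shrink the change of low genes, it was 0.24 and 1.25. The markers of haematopoietic cells were not analysed here, so their level cannot be set beside this value.

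Mmp3, the stromelysin, was also low in abundance. Its counts were 28, 114 and 64 in controls and 149, 414 and 128 with hydrogel. In FPKM these were 0.431, 0.666 and 0.903 against 2.61, 2.81 and 2.29, with no overlap between the groups. The fold change was 3.92 (log2 1.97, SE 0.25), and 1.11 in log2 on the log2(FPKM + 1) scale. Here the controls were the more variable group. Their coefficient of variation was 36.0%, against 10.4% with hydrogel. Control library 1 held 0.788 CPM (exact 95% Poisson interval 0.523 to 1.14) and control library 3 held 1.65 (1.27 to 2.11), so the controls differed beyond counting error. The 3 hydrogel intervals overlapped.

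**Figure D3:**
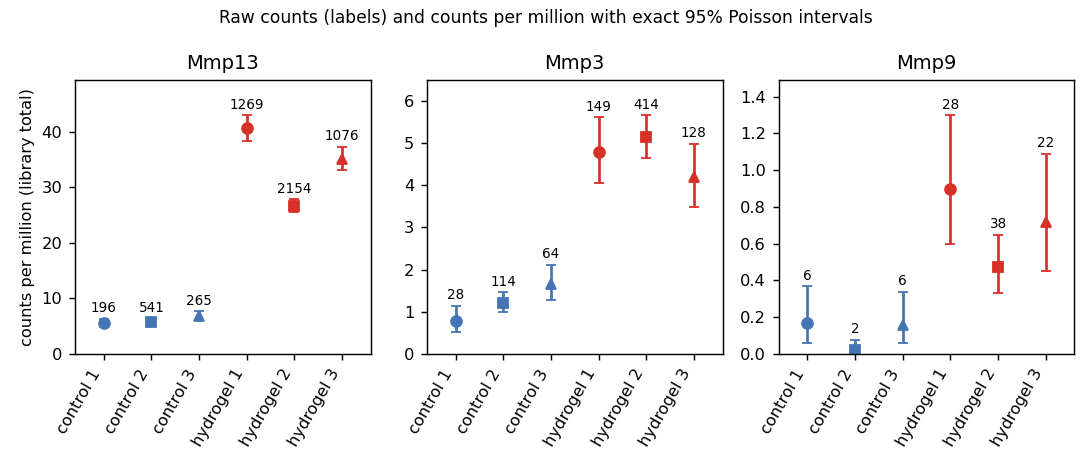
CPM relative to the library total for Mmp13, Mmp3 and Mmp9 in each library, with exact 95% Poisson intervals as bars and the raw count printed above each point; blue is control and red is hydrogel. The hydrogel libraries lie above the controls in each panel, and the widest intervals relative to their level belong to Mmp9, with 2 to 38 counts per library.

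Mmp14, the membrane-anchored collagenase and activator of the Mmp2 proenzyme, was the member that was lower with hydrogel. Its FPKM were 180, 181 and 176 in controls and 138, 141 and 134 with hydrogel. Both groups were tight, with coefficients of variation of 1.36% and 2.71%, and their libraries did not overlap. The log2 fold change was -0.35 (SE 0.04), which makes controls 1.28-fold higher. This is a modest change in size, larger than that of 68.9% of tested genes. Under library totals alone and under RLE and upper-quartile scaling, Mmp14 remained lower with hydrogel and Timp1 higher.

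Timp1, the inhibitor, had the smallest absolute log2 fold change of the members. Its FPKM were 336, 330 and 351 in controls and 380, 405 and 411 with hydrogel. The gap between the highest control, library 3, and the lowest hydrogel library, number 1, was of the size of the spread within the hydrogel group. The fold change was 1.20 (log2 0.26, SE 0.05), and the absolute log2 change was larger than that of 57.9% of tested genes.

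The ratio of FPKM to Timp1 sets each proteinase transcript against that of the inhibitor in the same library. The FPKM of Mmp2 was 1.79, 1.70 and 1.71 times that of Timp1 in controls and 2.75, 2.31 and 2.32 times with hydrogel. The mean log2 ratio went from 0.80 ± 0.04 to 1.29 ± 0.14 (SD, n = 3). Hydrogel library 1 had the highest ratio, with the highest Mmp2 and the lowest Timp1 of its group. Mmp13 amounted to 0.631%, 0.672% and 0.747% of Timp1 in controls and to 4.12%, 2.53% and 3.28% with hydrogel, a difference of 2.25 in the mean log2 ratio. Mmp3 went from 0.128%, 0.202% and 0.257% of Timp1 to 0.689%, 0.693% and 0.556%, a difference of 1.77. All 3 proteinases were thus higher relative to the inhibitor in every hydrogel library than in any control, though Mmp13 and Mmp3 stayed at a few percent of the Timp1 level or less. The ratio for Mmp9 was left out, since its controls held under 10 counts.

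Mmp14 moved the other way. It stood at 53.7%, 54.8% and 49.97% of Timp1 in controls and at 36.4%, 34.8% and 32.6% with hydrogel, a mean log2 difference of -0.61. Since Mmp2, the gelatinase that Mmp14 activates, was higher and Mmp14 lower, their ratio necessarily differed by more than either gene alone. Mmp2 FPKM were 3.34, 3.11 and 3.43 times those of Mmp14 in controls and 7.56, 6.65 and 7.12 times with hydrogel. The group means were 3.29 ± 0.17 and 7.11 ± 0.45 (SD, n = 3), with no overlap. These are ratios of transcripts, and neither protein nor enzyme activity was measured.

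**Figure D4:**
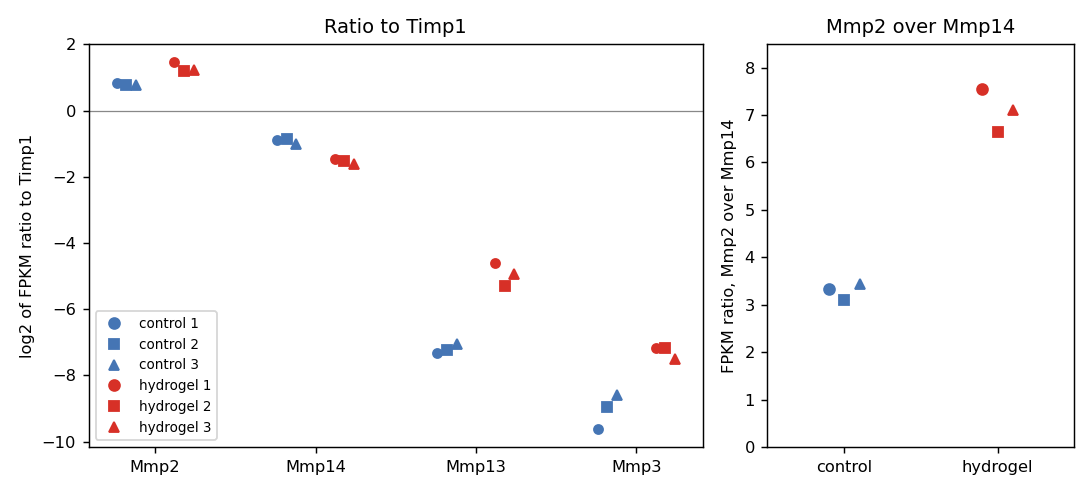
Left, log2 of the FPKM ratio to Timp1 for Mmp2, Mmp14, Mmp13 and Mmp3; right, the FPKM ratio of Mmp2 to Mmp14 on a linear axis from 0; each point is 1 library, blue control and red hydrogel. Red lies above blue for Mmp2, Mmp13 and Mmp3 and below it for Mmp14, and the Mmp2 to Mmp14 ratio runs from 3.11 to 3.43 in controls and from 6.65 to 7.56 with hydrogel.

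The summed FPKM of the 5 proteinases was 785, 746 and 781 in controls and 1200, 1092 and 1105 with hydrogel. The group means of 771 ± 21.3 and 1132 ± 59.0 (SD, n = 3) stand in a ratio of 1.47. Nearly all of this sum was Mmp2 and Mmp14. Mmp2 made up 76.4% ± 0.90 of it in controls and 86.4% ± 0.54 with hydrogel, Mmp14 23.2% ± 0.92 and 12.2% ± 0.71, and Mmp13 0.301% ± 0.033 and 1.16% ± 0.19. The large fold differences of Mmp13, Mmp3 and Mmp9 thus added little to the total of these transcripts.

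Across libraries, the members did not all deviate together within a group. In the hydrogel group, library 1 was the highest for Mmp13, Mmp2 and Mmp9 and the lowest for Timp1. Library 2 was the lowest for Mmp13, Mmp2 and Mmp9 but the highest for Mmp3 and Mmp14. Among controls, library 3 was the highest for Mmp13, Mmp3 and Timp1 and the lowest for Mmp14. With 3 libraries a group, these orders are descriptions only.

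Over all 6 libraries, log2 CPM of Mmp13 had a Pearson correlation of 0.99 with Mmp2, 0.96 with Mmp3, 0.91 with Mmp9, 0.92 with Timp1 and -0.99 with Mmp14. The same separation of the groups enters each of these values, and 846 of 10245 other genes averaging 5 CPM or more correlated with Mmp13 above 0.95. The closest were ENSRNOG00000010308 (r = 0.9988, from 52.3 ± 1.35 to 81.3 ± 4.81 TMM-scaled CPM, SD, n = 3) and ENSRNOG00000018390 (r = 0.9983, from 202 ± 2.27 to 236 ± 2.98 TMM-scaled CPM). In log2 fold change both, at 0.63 and 0.22, changed far less than Mmp13, at 2.52. The files give no names for them.

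As a check of identity, the gene length implied by count, FPKM and library total was computed for each member. It was 2602 bp for Mmp13, 3040 bp for Mmp2, 1827 bp for Mmp3, 3050 bp for Mmp9, 2385 bp for Mmp14 and 873 bp for Timp1, and within each gene it was the same in all libraries to a relative 4.34e-08 or less. Timp1, which encodes a small protein, was the shortest, and the median of tested genes was 2758 bp. Each length is shorter than the RefSeq span of the gene of that symbol, from 6070 bp for Timp1 to 28214 bp for Mmp2, as it must be for spliced transcripts. This is a weak check that many other genes would pass, and it does not establish the names.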

How the data were processed

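RNA sequencing of 6 libraries was used, 3 per group, assigned by the sample titles. The authors deposited raw counts per gene and, per library, FPKM values, per the file headers. Dividing each count by its FPKM and library total returned the same gene length in every library (largest relative difference 8.79e-07 over 19429 genes), so the deposited FPKM carry the same reads. The aligner and counting tool are not given in the sources used here. The submitters' processing notes name the genome as GRCm38 and mm10, both names of a mouse build, although the identifiers carry the rat Ensembl prefix. The genome behind the counts is therefore not settled, and strand use and reads shared between related genes were not examined.

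The members and lists were chosen with earlier results of these data known. No table used here pairs the identifiers with symbols (0 identifiers matched), so the member symbols come from the member list, and the lists of other proteases, inhibitors, activators and cell type markers were not analysed.

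edgeR 4.0.16 (R 4.3.3) was fitted to all genes kept by filterByExpr (minimum count 10, minimum total 15), with TMM scaling and the quasi-likelihood test, and Benjamini-Hochberg adjustment over all of them. A gene was called at an adjusted p under 0.05. Standard errors came from the F statistic. Log2 CPM were TMM-scaled with a prior count of 2, and the mean CPM limits of 5 and 100 were TMM-scaled too. Intervals on single counts are exact 95% Poisson intervals and cover counting error only. The labels state no pairing, so the sample numbers were not treated as pairs. The correlations of same-numbered libraries' deviations were 0.022, 0.051 and 0.013, which cannot settle whether the libraries are paired. Replicate libraries differed from each other beyond counting noise (chi-square per degree of freedom 6.17 to 16.5 over 6 pairs), and each counted as 1 replicate. Alternatives were DESeq2 1.42.0, limma 3.58.1 on log2 FPKM, other scalings and filters, a robust fit, the replicate block, leaving out each library, and libraries 1 and 3 alone. The genes named beyond the members are the 2 most correlated with Mmp13 among genes averaging 5 CPM or more.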

Additional observations from a re-analysis of the deposited data

How the results depend on the processing

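The 6 fold changes kept direction and call in all 101 alternative values, 1 per gene and setting. These came from 17 alternative settings, 16 for Mmp9, all drawn from the same 6 libraries. Since the members were chosen with this comparison known, the kept calls describe the processing only and add no support. Mmp9 was not tested where 1 CPM in 3 libraries was required, which left 5 members called in place of 6. Leaving out 1 library moved log2 fold changes to 2.38 to 2.67 for Mmp13, 0.71 to 0.78 for Mmp2, 1.77 to 2.20 for Mmp3, 2.08 to 3.27 for Mmp9, -0.38 to -0.34 for Mmp14 and 0.24 to 0.29 for Timp1. The replicate block gave 2.49 for Mmp13, called 6 members and 5246 genes, against 5079 without it, and changed no member's call. Each library correlated best with that of its own number in the other group, at 0.051 or less, which cannot settle whether the libraries are paired. Over 2-fold, 843 genes were called, and 176 with limma on log2(FPKM + 1), whose pseudocount shrinks low genes by construction. Depth limits Mmp9 most, with 2 to 38 counts per library.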
